A study of Mus musculus with 9 samples.

Results

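The Hippo pathway genes described here are Yap1, Wwtr1, Tead1, Tead2, Tead3, Lats1, Lats2, Nf2, Fat1 and Amotl2. They were taken by symbol from the platform annotation, which gave 10 of 18193 named genes and 23 of 34945 probe sets with 1 gene symbol. RNA came from the optic cup of mouse embryos at E11.5, cut out by laser microdissection, and each sample was read on its own Affymetrix mouse genome array. The 3 regions were the optic fissure (cup cells up to 5 cell diameters from its edge) and the central nasal and central temporal cup, with 3 arrays each, lettered A, B and C. The series calls them biological replicates. The labels name no strain, genotype or treatment, and do not say whether a letter marks shared embryos, so p-values measure only the spread between these samples.

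The Hippo pathway carries contact and shape cues from the cell surface to transcription. A kinase cassette ending in Lats1 and Lats2 phosphorylates the coactivators YAP (Yap1) and TAZ (Wwtr1) and keeps them out of the nucleus. When they are not phosphorylated they bind TEAD proteins on DNA and switch on growth and adhesion genes. Much of this control acts on the proteins, which arrays do not measure. The pathway has a known place in the eye: in mouse and zebrafish YAP is needed for the pigment epithelium, and loss of mouse Nf2 leaves the optic fissure open. In humans, variants in YAP1 and FAT1 have been found in families with coloboma, the defect of an unclosed fissure.

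Promoter sequences of the coactivators and of Amotl2 are shown because they bear on whether these genes carry the letters that TEAD proteins read. The windows run from 250 bases before to 50 bases after a start site, 5′ to 3′ on the gene's strand, from RefSeq (GRCm38.p6). Capitals mark CATTCC, the core of the TEAD motif, or its reverse complement GGAATG. The windows are chr9:8004547-8004846 (minus strand) for Yap1, chr3:57575861-57576160 (minus strand) for Wwtr1 and chr9:102717554-102717853 (plus strand) for Amotl2.
Yap1: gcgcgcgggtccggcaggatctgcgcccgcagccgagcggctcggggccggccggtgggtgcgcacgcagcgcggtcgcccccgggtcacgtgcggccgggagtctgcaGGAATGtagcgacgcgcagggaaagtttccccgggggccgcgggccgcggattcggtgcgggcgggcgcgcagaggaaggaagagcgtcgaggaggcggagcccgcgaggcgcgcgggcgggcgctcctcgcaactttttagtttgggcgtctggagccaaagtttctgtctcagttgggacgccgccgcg
Wwtr1: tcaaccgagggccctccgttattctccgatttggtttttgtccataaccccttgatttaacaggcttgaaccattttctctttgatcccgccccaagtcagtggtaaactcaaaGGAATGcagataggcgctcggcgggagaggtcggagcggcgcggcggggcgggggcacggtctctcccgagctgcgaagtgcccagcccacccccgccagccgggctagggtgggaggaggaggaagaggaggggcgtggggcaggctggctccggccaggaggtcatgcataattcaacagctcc
Amotl2: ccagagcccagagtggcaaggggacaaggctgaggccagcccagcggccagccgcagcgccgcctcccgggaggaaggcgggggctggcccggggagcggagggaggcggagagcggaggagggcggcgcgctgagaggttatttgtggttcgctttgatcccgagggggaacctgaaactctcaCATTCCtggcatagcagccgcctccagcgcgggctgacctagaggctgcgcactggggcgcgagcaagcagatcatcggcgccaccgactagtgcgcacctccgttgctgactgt
The match begins 141 bases before the start site in Yap1, 136 bases before it in Wwtr1 and 65 bases before it in Amotl2. Of the 10 genes, 9 had a window in the table and 6 had a match on either strand in at least 1 window. Counted by window, 8 of 14 held a match, against 14.7% of all 32851 windows of the same length. Some genes have several overlapping windows, so these are not separate sequences. A match in these letters is a description and not a binding site.

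Each gene is represented by its brightest probe set, by the mean of all 9 arrays. Intensities are linear, and changes are on the log2(intensity + 16) scale, which understates the change of dim genes. All 10 genes lay above the array's 40th percentile (15.7 to 17.5) on at least 3 arrays and were tested with 12770 genes in all. A gene passed at a limma p-value below 0.05 after Benjamini-Hochberg adjustment over all tested genes. Set against the average of nasal and temporal cup (called here the rest of the cup), the fissure had 0 of the 10 genes past the threshold, while 8.60% of all tested genes passed. At an unadjusted p below 0.05 the count was 1, Wwtr1. Against nasal cup alone 0 of 10 passed (background 6.37%) and 0 had an unadjusted p below 0.05. Against temporal cup 0 of 10 passed (background 5.36%) and 1 had an unadjusted p below 0.05, again Wwtr1. Between nasal and temporal cup 0 of 10 passed (background 0.0470%) and 0 had an unadjusted p below 0.05. With the letter of the array as a block, 1 of 10 genes passed against the rest of the cup (background 17.0%), 0 against nasal cup (12.5%), 1 against temporal cup (12.1%) and 0 between nasal and temporal cup (0.133%). The median log2 change of the 10 genes against the rest of the cup was 0.0010, beside 0.042 over all tested genes.

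**Figure D1:**
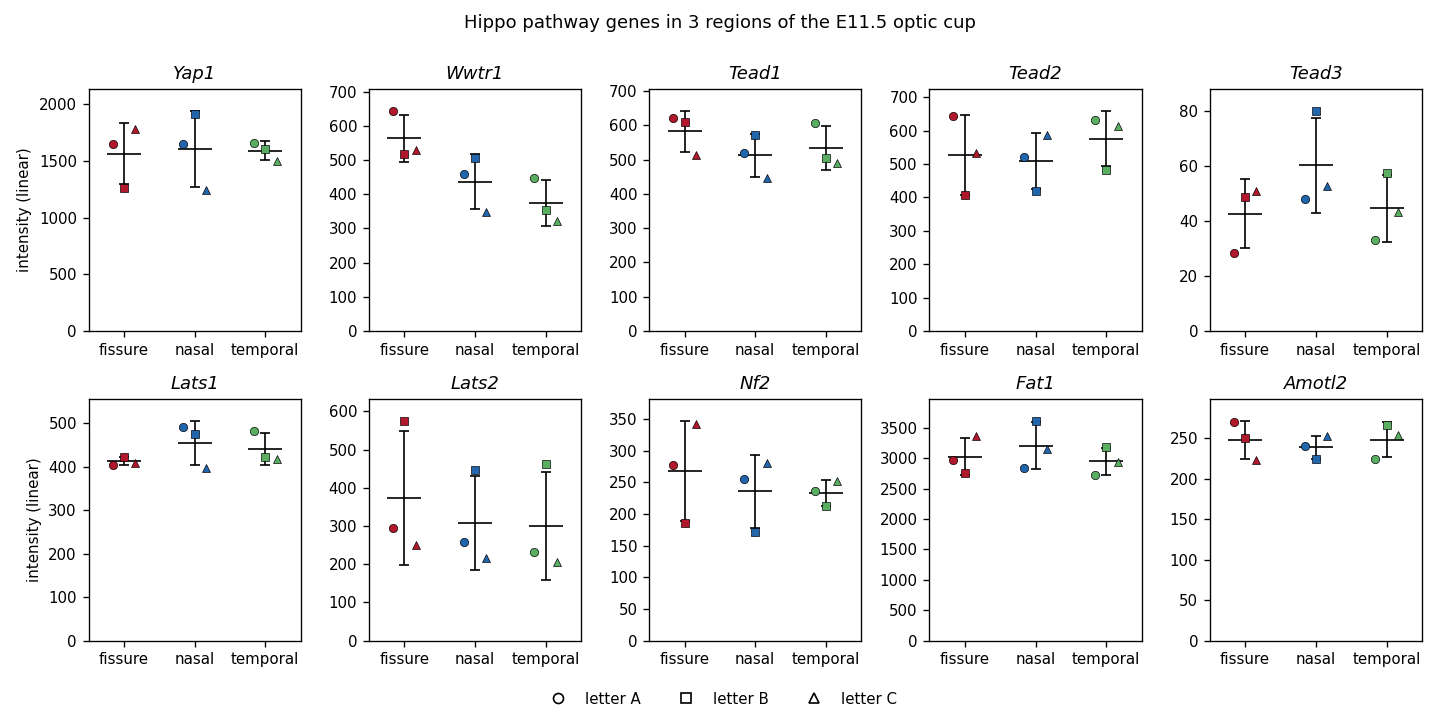
Probe set intensity (linear, y axis from 0) of the 10 genes on the fissure, nasal and temporal arrays; symbols give the letter, and the horizontal line and bars give mean and SD of 3 arrays. Wwtr1 is the gene whose fissure arrays (519 to 643) all lie above the 6 others (322 to 505).

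The captures were not pure cup tissue. Of 11 macrophage and leukocyte genes 11 were higher in the fissure, and the list summed to 2748 to 3188 on fissure arrays against 477 to 749.9 on nasal and 391 to 624 on temporal arrays. Of 7 tested lens genes 5 were higher and 0 lower, and the list summed to 2489 to 3629 on fissure arrays, against 661 to 714 on nasal and 597 to 1283 on temporal arrays. Of 11 tested periocular mesenchyme genes 4 were higher and 2 lower, with sums of 1199 to 2453 on fissure arrays, against 831 to 1263 on nasal and 671 to 1403 on temporal arrays. Of 11 pigment epithelium genes 1 was higher and 5 lower, of 6 surface ectoderm genes 1 and 2, and none of 6 endothelial or 4 erythroid genes passed in limma (1 and 3 at an unadjusted p below 0.05; 0 and 3 higher with the letter as a block). The fissure label was met by the ventral genes: 4 of 4, such as Vax1 and Aldh1a3, were higher in the fissure. All 8 measured cup genes, among them Pax6 and Six6, were tested, with 3 lower and 0 higher in the fissure. The cup list summed to 7781 to 8314 on fissure arrays, against 11728 to 14652 on nasal and 12812 to 14242 on temporal arrays. The cup signal was thus lower on the fissure arrays. No marker was at 0 on all arrays. The poly-A spike, added at labelling, read 844, 1180 and 2099 on fissure arrays A, B and C, against 493, 722 and 1060 on nasal and 420, 576 and 959.5 on temporal arrays (exact two-sided permutation test, p = 0.0714, over splits that ignore the letters). Within each letter the fissure array read highest, then nasal, then temporal. The part of other cells and of RNA input in the results below was not tested. In such bulk captures a change in the number of cells of a type cannot be told apart from a change in RNA per cell. Fissure array B was about as like the other regions (r 0.960 to 0.970) as like fissure arrays A (0.971) and C (0.964), so changes against the rest of the cup are also given without it.

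Yap1, the coactivator at the end of the pathway, did not pass in any comparison. Its intensity was 1649, 1264 and 1785 on fissure arrays A, B and C, against 1647, 1916 and 1248 on nasal and 1662, 1609 and 1498 on temporal arrays. The 3 regions overlapped throughout. The log2 change of the fissure against the rest of the cup was -0.031 (SE 0.17, limma adjusted p = 0.944), with a 95% confidence interval from -0.40 to 0.34. Nasal against temporal cup gave -0.0076 (95% interval -0.43 to 0.42). A dimmer Yap1 probe set averaged 83.3 ± 7.81 on fissure arrays, against 69.8 ± 16.6 on nasal and 76.1 ± 28.0 on temporal arrays (SD, n = 3 each), and it did not pass either (log2 change 0.19, adjusted p = 0.678 in the probe set fit).

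Wwtr1, which encodes TAZ, the paralogue of YAP, was the gene of this group with the highest fissure level relative to the rest. It read 643, 519 and 529 on fissure arrays A, B and C, against 459, 505 and 347 on nasal and 449, 353 and 322 on temporal arrays. Every fissure array lay above all 6 others. That held for 1 of the 10 genes, against 8.41% of all tested genes, so the count itself is near the background. The log2 change was 0.47 (SE 0.16, 95% interval 0.11 to 0.83), a 1.39-fold difference with an interval of 1.08 to 1.78. Its limma adjusted p was 0.110, short of the threshold.

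In the blocked fit Wwtr1 was the gene of the 10 that passed, with an adjusted p of 0.0301. It also passed against temporal cup (log2 change 0.58, adjusted p = 0.0309) but not against nasal cup (0.37, adjusted p = 0.135). Its mean was 564 ± 69.1 on fissure, 437 ± 81.4 on nasal and 375 ± 66.3 on temporal arrays (SD, n = 3 each). Nasal and temporal cup did not differ beyond their spread (log2 change 0.21, adjusted p = 1 in limma). Without fissure array B the change against the rest of the cup was 0.53 (limma adjusted p = 0.0936). Without fissure array A it was 0.37 (adjusted p = 0.400). With the spike signal as a covariate it was 0.74 (adjusted p = 0.0682). Leukocyte and lens genes were higher on the same fissure arrays, as given above, and their part in the Wwtr1 level was not tested.

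The other Wwtr1 probe sets were also higher on average in the fissure. One read 107, 117 and 106 on fissure arrays A, B and C, against 52.2, 58.4 and 70.9 on nasal and 52.0, 37.8 and 77.6 on temporal arrays. Again no fissure array overlapped the rest. In the fit over 23503 probe sets, where 5.74% passed, its log2 change was 0.79 (SE 0.18, limma adjusted p = 0.0248). The remaining probe set read 108, 121 and 79.7, against 45.6, 49.0 and 89.2 on nasal and 39.5, 66.8 and 95.1 on temporal arrays, where fissure array C lay among the others (log2 change 0.60, adjusted p = 0.204). When a gene was taken as the mean log2 value of its probe sets, Wwtr1 passed against the rest of the cup (0.62, limma adjusted p = 0.0103).

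**Figure D2:**
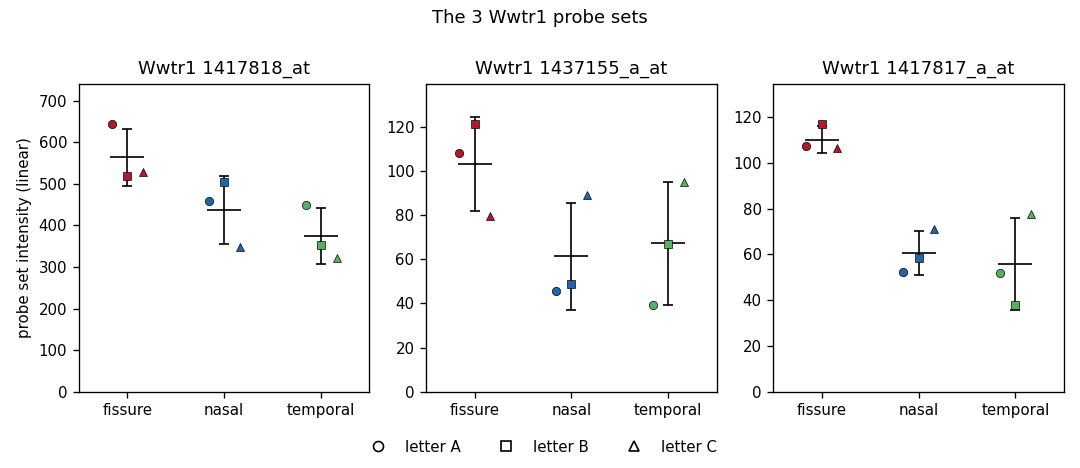
Linear intensity (y axis from 0) of the 3 Wwtr1 probe sets by region, with the letter as symbol and mean ± SD of 3 arrays as line and bars. In the left and right panels all fissure arrays lie above the others; in the middle one fissure array C (79.7) lies below nasal array C (89.2) and temporal array C (95.1).

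Since Yap1 and Wwtr1 are paralogues acting at the same step, their difference within each array was also taken, a choice made after their values were seen. Log2 Wwtr1 minus log2 Yap1 was -1.34, -1.26 and -1.73 on fissure arrays A, B and C, against -1.81, -1.89 and -1.80 on nasal and -1.85, -2.14 and -2.17 on temporal arrays. The fissure arrays all lay above the others, array C by less than 0.1. Wwtr1 by itself already separated these arrays, so the difference is not separate support. These differences rank the arrays and say nothing of which gene is more abundant.

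Among the TEAD genes, which encode the DNA-binding partners of YAP and TAZ, none passed in any comparison. Tead1, whose human counterpart is mutated in a chorioretinal atrophy, read 622, 611 and 515 on fissure arrays, against 518, 573 and 447.5 on nasal and 608, 506 and 490.0 on temporal arrays. Its log2 change against the rest of the cup was 0.15 (95% interval -0.16 to 0.46, limma adjusted p = 0.591). Tead2, a TEAD gene of early embryos and neural progenitors, read 644, 406 and 532.5 on fissure arrays, against 522, 421 and 586 on nasal and 632, 482 and 615 on temporal arrays. Regions overlapped for both genes, and the change of Tead2 was -0.050 (95% interval -0.44 to 0.34, adjusted p = 0.910). Tead3 was dim, at 28.2, 48.8 and 50.8 on fissure arrays, against 47.9, 79.9 and 52.7 on nasal and 32.9, 57.3 and 43.4 on temporal arrays. Its change was -0.22 (95% interval -0.65 to 0.22, adjusted p = 0.582), and against nasal cup alone -0.38 (adjusted p = 0.427, in the blocked fit 0.114). A dim second Tead1 probe set, above the 40th percentile on 3 arrays, read 7.2, 15.4 and 4.8 on nasal arrays, against 27.8, 31.5 and 13.5 on temporal arrays. These overlapped, and the log2 change of nasal minus temporal was -0.67 (limma adjusted p = 1).

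The kinases Lats1 and Lats2, which phosphorylate YAP and TAZ, did not pass in any comparison. Lats1 read 404, 422 and 409.5 on fissure arrays, against 492, 476 and 397.5 on nasal and 482, 422 and 417 on temporal arrays, with a change of -0.11 (95% interval -0.40 to 0.17, limma adjusted p = 0.671). Its other probe set read 4.1 to 20.2 and lay below the filter. Lats2, also a target of YAP, read 296, 575.5 and 251 on fissure arrays A, B and C, against 259, 447 and 215.5 on nasal and 231, 462 and 206 on temporal arrays. Letter B was high in every region, and within each letter the fissure array read highest. The change of Lats2 was 0.28 with a wide interval (95% interval -0.42 to 0.97, adjusted p = 0.673). Without fissure array B alone it was -0.070, a turned direction, and with another array left out it reached 0.50. Without all 3 letter B arrays it was 0.25 (limma adjusted p = 0.310). The letter as a block narrowed it to 0.043 to 0.51, with an adjusted p of 0.100. This probe set belongs to a class whose probes may also bind other transcripts. Of the other Lats2 probe sets, 3 passed the filter and 2, at 0.4 to 14.2, did not. The brightest of those 3 read 51.7, 73.1 and 53.7 on fissure arrays, against 72.1, 49.6 and 27.7 on nasal and 37.2, 68.6 and 59.7 on temporal arrays, without a common letter B maximum.

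Upstream regulators did not pass either. Nf2, which encodes merlin, a membrane-linked activator of the kinases, read 278, 185 and 342 on fissure arrays A, B and C, against 255, 171 and 280.5 on nasal and 237, 212 and 251 on temporal arrays. Its change was 0.16 (95% interval -0.29 to 0.60, limma adjusted p = 0.702). Of its 3 dimmer probe sets 1 passed the filter, with a change of 0.19 (adjusted p = 0.700). Fat1, a giant cadherin that can feed into the pathway, was among the bright genes, at 2966, 2755 and 3368 on fissure arrays, against 2849, 3620 and 3156 on nasal and 2733, 3182 and 2943 on temporal arrays. Its change was -0.023 (95% interval -0.32 to 0.28, adjusted p = 0.949). Amotl2, an angiomotin-like protein that binds YAP and is itself a YAP target, ranged from 224 to 270 over all 9 arrays. Its change of 0.025 had the narrowest interval of the group, -0.26 to 0.31 (adjusted p = 0.941).

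**Figure D3:**
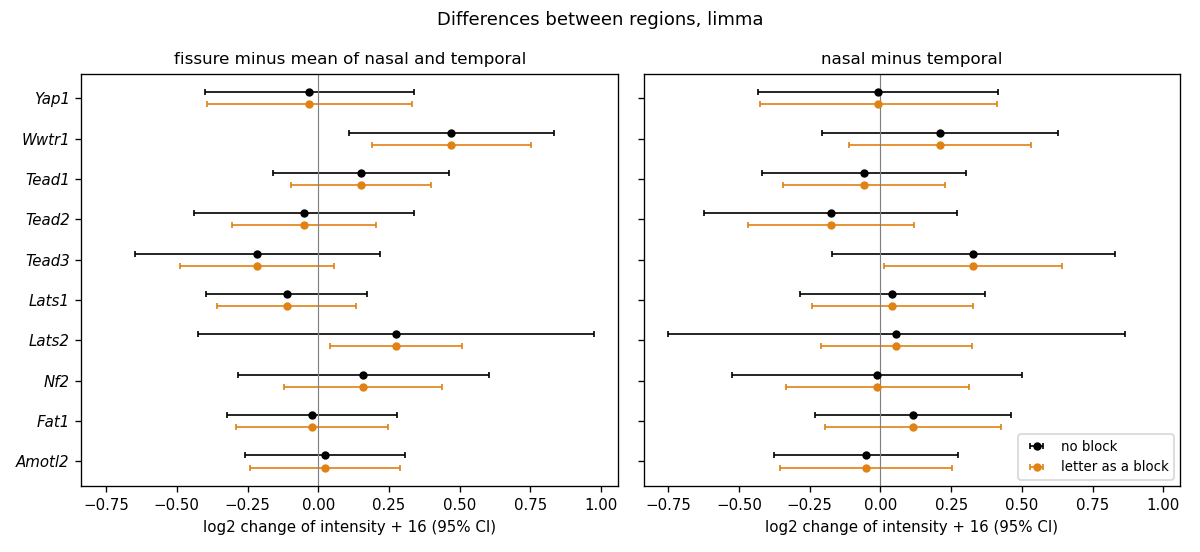
Log2 change (x axis, log2 of intensity + 16) of each gene for fissure minus the rest of the cup (left) and nasal minus temporal cup (right); points are limma estimates and bars 95% confidence intervals, without (black) and with (orange) the letter as a block. Wwtr1 on the left is at 0.47 with both intervals above 0; on the right its estimate is 0.21 with both intervals spanning 0.

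The intervals bound what the data leave possible for the 9 genes other than Wwtr1. For fissure against the rest of the cup their estimates ran from -0.22 (Tead3) to 0.28 (Lats2), and no interval reached below -0.65 or above 0.97. For nasal against temporal cup they ran from -0.18 (Tead2) to 0.33 (Tead3), within intervals of -0.75 to 0.86. The letter as a block gave other intervals. Lats2 against the rest of the cup had 0.043 to 0.51 (limma adjusted p = 0.100). Tead3 for nasal against temporal cup had 0.014 to 0.64 (limma adjusted p = 0.866). Without fissure array B none of the 9 passed either. Their changes were then 0.11 for Yap1, 0.12 for Tead1, 0.12 for Tead2, -0.30 for Tead3, -0.13 for Lats1, -0.070 for Lats2, 0.39 for Nf2, 0.043 for Fat1 and 0.016 for Amotl2 (limma adjusted p from 0.207 to 0.954). The signs of Yap1, Tead2, Lats2 and Fat1 thus turned when that array alone was left out. That fit keeps the letter B arrays of nasal and temporal cup, so an offset shared by letter B enters the comparison. Without letter B in all regions Tead2 (-0.0037) and Lats2 (0.25) kept their signs, and Nf2 changed by 0.26. Yap1 (0.19) and Fat1 (0.12) turned there too. Without fissure array C, which also leaves the letters unbalanced, Nf2 changed by -0.027. These p-values above the threshold do not show that the levels are equal.

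Some of the spread followed the letters instead of the regions. The letter B arrays lay apart from all A and C arrays for 3 of the 10 genes, as they did for 13.9% of all tested genes. Tead2 read 406 to 482 on letter B arrays against 522 to 644 on the others, and Nf2 171 to 212 against 237 to 342. Lats2 went the other way, at 447 to 575.5 against 206 to 296. Its letter B value exceeded the mean of A and C by 1.04, 0.87 and 1.03 on the log2 scale in fissure, nasal and temporal samples. In the same arrays the ratio of Gapdh signal at its 3-prime end to that at its 5-prime end, an RNA measure, was lowest in letter B in every region, at 4.93, 4.90 and 4.46 in fissure, nasal and temporal samples, while letters A and C ran from 6.08 to 14.96. Its part in these 3 genes was not tested.

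**Figure D4:**
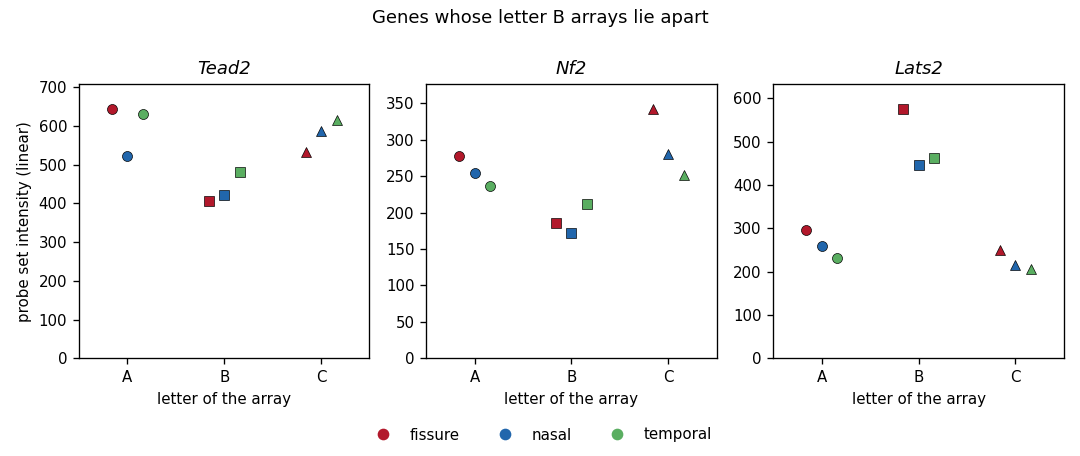
Linear intensity (y axis from 0) of Tead2, Nf2 and Lats2 by the letter of the array, coloured by region. The 3 letter B arrays are the lowest for Tead2 (406 to 482) and Nf2 (171 to 212) and the highest for Lats2 (447 to 575.5).

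The wider pathway was described from lists of kinases, junction proteins, nuclear partners and YAP targets, 54 measured genes in all, of which 47 were tested. Of these 7 passed in at least 1 comparison, each of them for fissure against the rest of the cup. In that comparison 8.60% of all tested genes passed. For fissure against the rest of the cup, the shares of all tested genes that passed were 5.72% higher and 2.88% lower. In the kinase list 1 of 10 rose and 0 fell (median log2 change 0.021). Taok3, a kinase that can activate the cassette, read 114, 130 and 149 in fissure samples, against 69.6, 83.4 and 48.3 in nasal and 73.8, 70.4 and 58.5 in temporal samples. Its change was 0.83 (SE 0.16, limma adjusted p = 0.00843). Its adjusted p was 0.0576 without fissure array C and 0.0609 with the spike as a covariate. With the mean of its probe sets the change was 0.38 (adjusted p = 0.0436). The related Taok1 did not pass (-0.32, adjusted p = 0.531).

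Among junction and upstream genes 2 of 16 rose and 1 fell (median -0.015). Fat4, the vertebrate Fat cadherin that pairs with Dchs1, had the largest change of all 47 genes in size. It read 175, 375 and 184 on fissure arrays A, B and C, against 581, 627 and 725 on nasal and 720, 733 and 773 on temporal arrays. The fissure arrays all lay below the rest, array B the least so. The share of all tested genes lying this way is not given here. The change was -1.52 (SE 0.21, limma adjusted p = 9.76e-04), and between -1.85 and -1.33 when any 1 array was left out, with an adjusted p of at most 0.00908. Its relative Fat1 changed by -0.023, as above. Dchs1 averaged 46.2 ± 14.96 on fissure arrays, against 53.1 ± 13.7 on nasal and 47.5 ± 16.9 on temporal arrays (SD, n = 3 each; log2 change -0.093, adjusted p = 0.856).

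Ptpn14, a phosphatase that binds YAP and a YAP target, rose by 0.61 (limma adjusted p = 0.0265), with 356, 256 and 304 in fissure samples against 169 to 219 in the 6 others. The call was lost without fissure array A (adjusted p = 0.165), fissure array C (0.104), nasal array A (0.0635), temporal array A (0.0590) or temporal array B (0.0509), and with the Gapdh ratio (0.0531) or the spike (0.267) as a covariate. The Ptpn14 call held with the letter as a block (limma adjusted p = 0.0125) and with array weights (4.08e-04). Wwc2, a relative of the Lats activator Wwc1, rose by 0.56 (limma adjusted p = 0.0465). It read 294, 249.6 and 395 on fissure arrays, against 227, 267 and 228.5 on nasal and 175, 175 and 169 on temporal arrays. Fissure and nasal arrays overlapped, and the change was 0.34 against nasal cup (adjusted p = 0.351) and 0.78 against temporal cup (adjusted p = 0.0263). Wwc2 lost the call without any 1 of the arrays except fissure array B, with adjusted p-values up to 0.251, and at 0.0528 to 0.244 with quantile normalization, median scaling, no filter, a pseudocount of 1 or the mean of its probe sets, where the change was 0.23. With the Gapdh ratio or the spike as a covariate the p was 0.0955 and 0.388. The Wwc2 call held with the letter as a block (limma adjusted p = 0.028) and with array weights (0.00326).

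Of the 4 tested nuclear partners, which include TEAD cofactors of the Vgll family, none passed in limma, 0 had an unadjusted p below 0.05 and 0 passed with the block. Vgll4, a repressor of TEAD, changed by 0.30 (adjusted p = 0.370) and did not pass. Tbx5, a dorsal T-box factor that can bind YAP, read 3.4, 2.9 and 12.1 on fissure arrays, all under the 40th percentile, against 51.3, 8.1 and 5.0 on nasal and 25.8, 4.9 and 18.0 on temporal arrays. It was tested through 3 of those 6 arrays and did not pass (adjusted p = 0.404), and no size of change is given for so dim a gene. Tead4 lay below the filter, at 4.33 ± 3.72 on fissure, 4.77 ± 3.78 on nasal and 4.67 ± 5.49 on temporal arrays (SD, n = 3 each).

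YAP and TAZ targets, from a signature known from human cancer cells, were mixed. The fissure had 3 of 17 tested targets higher and 0 lower (median log2 change 0.14, beside 0.042 over all genes). In the blocked fit 3 were higher and 1, Ccn2, was lower (-0.57, adjusted p = 0.0460, against 0.0887 without the block). In that fit 1405 of all 12770 tested genes were higher and 767 lower. Rbms3, an RNA-binding protein, read 481, 637 and 547 in fissure samples, against 187, 203 and 219 in nasal and 313, 345 and 372 in temporal samples. The 3 regions did not overlap, but nasal against temporal cup did not pass (log2 change -0.72, limma adjusted p = 0.416, and 0.120 with the block). How many of all tested genes separate the 3 regions is not given here. The change against the rest of the cup was 1.02 (SE 0.14, limma adjusted p = 7.43e-04), and 0.92 to 1.12 with 1 array left out. With the mean of its probe sets it was 0.77 (adjusted p = 0.0179). Ccdc80, a secreted matrix protein, rose by 0.75 (limma adjusted p = 0.00742). It averaged 111 ± 15.6 on fissure arrays, against 60.03 ± 12.2 on nasal and 59.0 ± 3.83 on temporal arrays (SD, n = 3 each). Its adjusted p was 0.0622 without fissure array A, 0.0593 with the mean of its probe sets (change 0.44) and 0.0870 with the spike as a covariate.

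Igfbp3, which binds insulin-like growth factors, rose by 0.69 (limma adjusted p = 0.0379). It was dim enough to drop out of the test with the filter at the 60th percentile. Its call was lost without fissure arrays A or C, nasal arrays A or B or temporal arrays A or B (adjusted p up to 0.176) or without all 3 letter B arrays (0.0587). It was also lost with pseudocounts of 1 or 64, no filter or the mean of its probe sets (adjusted p 0.0540 to 0.149; changes of 1.05 and 0.33 at those pseudocounts), and with the Gapdh ratio (0.0779) or the spike (0.341) as a covariate. The Igfbp3 call held with the letter as a block (limma adjusted p = 0.00877) and with array weights (0.00162). Leukocyte genes were higher in the same fissure captures, and 4 of 11 mesenchyme genes were higher and 2 lower, with sums that overlapped between regions. Their part in the rise of these 3 genes was not tested. With the spike signal as a covariate 1 of the 17 targets rose, and 0 kinases and 0 junction genes rose while Fat4 stayed lower. Of all 12770 tested genes 298 then rose and 148 fell. Without fissure array B 1 kinase gene rose, 2 junction genes rose and 2 fell, and 3 targets rose, beside 1207 of all tested genes that rose and 514 that fell.

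**Figure D5:**
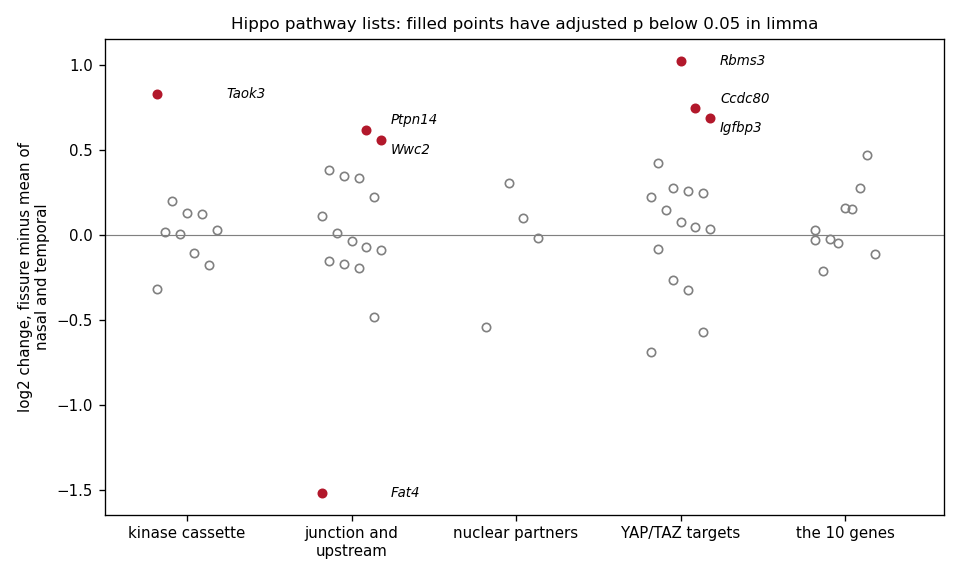
Log2 change of each tested gene for fissure minus the rest of the cup, by pathway list and for the 10 genes of this group; filled points passed in limma. Fat4 (-1.52) and Rbms3 (1.02) lie farthest from 0, and no point of the 10 genes at the right is filled.

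The genes most like Yap1 over the 9 arrays were Cntln (Pearson r = 0.939), Il18rap (0.936) and Dera (0.933), by log2 values over all tested genes. For Wwtr1 they were Erlec1 (0.968), Castor1 (0.939) and Zfp677 (0.937). Castor1 averaged 63.3 ± 5.85 on fissure, 37.2 ± 14.2 on nasal and 35.2 ± 14.2 on temporal arrays (SD, n = 3 each). They have the 3 highest coefficients among all tested genes for each, the arrays share letters and regions, and no test was made. Il18rap was dim, between 11.2 and 15.3 in the regional means.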

How the data were processed

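Transcript levels were measured in 9 samples, 3 each from optic fissure, nasal and temporal cup. The authors deposited linear intensities for 45101 probe sets per array. Their summary and scaling are not stated in these sources, but their trimmed mean was 150 on every array, and no further scaling was applied. No detection calls were used, and the number of arrays limits precision. Names came from the platform annotation, which can be old.

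Intensities were turned into log2(intensity + 16). Genes past the 40th percentile of an array on 3 arrays or more were tested. Region means were estimated over all 9 arrays by lmFit and eBayes (limma 3.58.1, R 4.3.3), with Benjamini-Hochberg adjustment over 12770 genes. The fit was also run on simulated data, drawn with independent noise and no letter effect. That run cannot show how a fit without a letter term behaves on these arrays. Alternatives covered the filter, normalization, pseudocount, probe set summary, variance model, array weights, letter block, RNA covariates and arrays left out. Pairing by letter was checked by departures from region means. They correlated at 0.166 to 0.487 in the 9 pairs of arrays sharing a letter and at -0.438 to 0.218 in the 18 others. Departures within a region cancel out, so these ranges are not independent. They also overlap: fissure array A correlated at 0.218 with temporal array C and at 0.166 with nasal array A. Arrays of a letter thus tended to vary together. The labels do not say what they share, and the cause was not tested. The fit behind the printed changes has no letter term. The fit with the letter as a block is given beside it for the counts of the 10 genes and for some of the named genes. The members, lists and alternatives were chosen with earlier results of these data known. Named genes were the 10 members and, from each pathway list, those that passed and the 2 with the smallest p, and others are said to be chosen afterwards. Dchs1 and Tead4 were also named after their values were seen. Figures were drawn with matplotlib 3.10.9.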

Additional observations from a re-analysis of the deposited data

How the results depend on the processing

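Of 906 values of the 10 genes under the alternatives, 810 kept their direction and their side of the threshold, 89 changed sign without passing in either fit, and 7, all of Wwtr1, newly passed. The count of the 10 genes that passed was 0 in each of the 4 comparisons. It was 1 (Wwtr1) against the rest of the cup and against temporal cup with the replicate block, with array weights and with the mean of a gene's probe sets, and 1 against nasal cup with the last of these. It stayed at 0 with any 1 array, or the 3 letter B arrays, left out. Over its 22 alternatives the change of Wwtr1 against the rest of the cup ran from 0.37 to 0.74, with adjusted p from 0.0103 to 0.400. Counts over all genes for fissure against the rest of the cup were 1098, but 4100 with array weights, 2172 with the replicate block, 446 with the spike as a covariate and 545 to 1721 with arrays left out. Against nasal cup they were 814, but 2675, 1592, 410 and 420 to 1245, and against temporal cup 685, but 3133, 1541, 277 and 372 to 1161. Between nasal and temporal cup they were 6, but 10 with array weights, 17 with the replicate block, 3 with only those regions in the fit, 10 with the Gapdh ratio as a covariate and 2 to 8 with arrays left out. The cause of these shifts was not tested.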

Other observations

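The best known YAP and TAZ targets were looked at after the values were seen. Ccn2, which encodes connective tissue growth factor, read 79.1, 87.3 and 65.1 in fissure samples, against 120, 149 and 166 in nasal and 81.9, 87.5 and 149 in temporal samples. Fissure and nasal samples did not overlap, but the share of all tested genes that separate in this way is not given here. Against the rest of the cup Ccn2 changed by -0.57 (limma adjusted p = 0.0887, and 0.0460 with the replicate block). The log2 change against nasal cup was -0.79 (limma adjusted p = 0.0563, and 0.0286 with the replicate block) and against temporal cup -0.36 (adjusted p = 0.431). Ccn1, its matricellular relative, averaged 75.6 ± 7.07 on fissure, 62.4 ± 11.02 on nasal and 57.6 ± 1.65 on temporal arrays (SD, n = 3 each) and did not pass (0.27, adjusted p = 0.267). Ankrd1 lay between 0.8 and 9.4 on all arrays, below the filter.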
